A study of Saccharomyces cerevisiae with 8 samples.

Results

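In 227 of the 5933 yeast genes measured, most reads of untreated wild-type cells came from truncated transcripts, whose poly(A) site lies before the 3′ untranslated region. The genes were selected on that measure. Each had at least 50 counts in all 8 libraries, which 3952 genes met, and a truncated fraction of at least 0.5 in both untreated wild-type libraries. The truncated fraction of these libraries is therefore given as a description, and the other 3725 genes with enough counts serve for comparison. Near the threshold, the lower of the untreated wild-type values was 50.2% in YDR239C, 50.3% in NSE5 and 50.4% in YAR009C, just inside it. It was 49.9% in DNA2, 49.9% in TEL1 and 49.8% in YJR015W, just outside.

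Direct RNA sequencing reads polyadenylated RNA from its 3′ end without making cDNA, so each read is taken to mark a poly(A) site. Whether every read does so was not tested. The cells were W303 yeast with the ade2-1, his3-11,15, trp1-delta and ura3-1 mutations and a leu2 mutation. In all of them the chromosomal PCF11 gene was deleted with TRP1 (pcf11-delta::TRP1), and a LEU2 plasmid, pRS325, supplied the only PCF11 allele. The groups were pcf11-13 with and without caffeine (MATa, untagged allele, 1 library each, experiment 1), pcf11-dNL with and without caffeine (MATalpha, V5- and MYC-tagged deltaN-link allele, 1 library each, experiment 2), and wild type with and without caffeine (MATalpha, V5-PCF11-MYC, 2 libraries each, experiments 1 and 2). Treated cultures were kept at 30 °C for 2 h in 20 mM caffeine before harvest. Caffeine therefore cannot be told apart from the longer culture, and pcf11-13 cannot be told apart from its mating type and untagged allele. Nothing states that the libraries of a group came from separate cultures, so the p-values reflect only how far these samples differ, which may be a technical spread.

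Total counts ran from 1070278 to 4555751, and untreated wild type had 1070278 and 1631254. URA3 and the 2-micron plasmid features took 11.4% and 8.36% of the counts in the caffeine-treated and untreated wild-type libraries of experiment 1, and 0.252% to 0.463% in the other 6 libraries. The MATa pheromone gene MFA2 stood at 1314 and 1863 CPM (counts scaled to library size) in the pcf11-13 libraries and at 7.45 to 25.2 CPM in the other 6. The MATalpha gene MF(ALPHA)1 stood at 14.7 and 13.7 CPM in pcf11-13 and at 129.0 to 1332 CPM in the other 6. Not every MATalpha marker separated the strains. SAG1 had 357.0 and 206.2 CPM in pcf11-13, against 132.7 to 549.9 CPM. MF(ALPHA)2 had 26.8 and 28.1 CPM, against 24.8 to 2238 CPM. PCF11 itself had 108.9 to 222.1 CPM, a level that does not check the alleles, because every strain carries one.

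Where an RNA ends decides whether it can encode a whole protein. The cleavage and polyadenylation machinery, of which Pcf11 is a subunit in cleavage factor IA, cuts the nascent RNA, and RNA polymerase II then terminates. In budding yeast, ends close to the promoter are often made by the Nrd1-Nab3-Sen1 pathway, whose RNA-binding subunits recognise GTAA or GTAG (Nrd1) and TCTT (Nab3) in the transcript, written here as DNA. Ends further inside a gene can be made by the cleavage machinery itself, which uses TATATA-like efficiency elements bound by Hrp1. DEF1 and HRP1 are known for early termination near their starts, and RNA14 for a poly(A) site inside its coding sequence.

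The start of the coding sequence is shown for 4 genes whose truncated reads were mostly promoter-proximal, since the largest caffeine response and the known early terminators are among them. They are GCV1 (chromosome IV, 485216 to 485365, minus strand), DEF1 (chromosome XI, 338604 to 338753, minus strand), HRP1 (chromosome XV, 87844 to 87993, plus strand) and SER3 (chromosome V, 322686 to 322835, plus strand). Each line holds the first 150 bases of the RefSeq coding strand, 5′ to 3′, of the sacCer3 assembly (R64), and capitals mark TCTT, GTAA and GTAG.
GCV1: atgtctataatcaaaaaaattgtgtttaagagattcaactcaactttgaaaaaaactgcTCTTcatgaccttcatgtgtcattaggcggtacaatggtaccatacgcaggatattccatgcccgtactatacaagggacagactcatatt
DEF1: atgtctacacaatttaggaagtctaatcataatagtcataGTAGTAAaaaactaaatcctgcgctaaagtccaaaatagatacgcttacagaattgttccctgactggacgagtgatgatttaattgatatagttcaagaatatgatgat
HRP1: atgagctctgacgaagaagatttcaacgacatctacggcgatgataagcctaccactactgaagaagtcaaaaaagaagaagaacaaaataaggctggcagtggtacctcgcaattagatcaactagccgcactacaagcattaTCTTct
SER3: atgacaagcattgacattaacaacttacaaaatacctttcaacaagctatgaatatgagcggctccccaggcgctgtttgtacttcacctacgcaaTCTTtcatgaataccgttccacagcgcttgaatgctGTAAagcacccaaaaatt

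RNA14 and RRN3 are shown around their TATATA matches, as genes whose truncated reads ended further in. The same search found no match in GBP2, also of the group and with truncated reads mostly outside the proximal region, or in HRP1, DEF1 and GCV1. Where the reads end relative to the matches was not tested. The RNA14 stretch covers bases 957 to 1040 of 2034 (chromosome XIII, 393711 to 393794, plus strand) and the RRN3 stretch bases 384 to 435 of 1884 (chromosome XI, 208630 to 208681, plus strand), counted from the first base of the start codon. Capitals mark TATATA, and the 2 matches in RRN3 overlap.
RNA14: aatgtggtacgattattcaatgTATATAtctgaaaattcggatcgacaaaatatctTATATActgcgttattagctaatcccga
RRN3: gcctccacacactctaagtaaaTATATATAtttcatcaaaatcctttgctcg

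All 8 libraries entered the choice through the minimum count, but the truncated fraction of 6 of them did not. With caffeine their median truncated share was 60.4% in pcf11-13, 61.3% in pcf11-dNL, and 61.9% and 53.8% in wild type of experiments 1 and 2. Without it the median was 73.2% in untreated pcf11-13 and 70.8% in untreated pcf11-dNL, against 70.7% and 67.8% in untreated wild type of experiments 1 and 2. Of the 227, 209 were at 50% or more in untreated pcf11-13, 219 in untreated pcf11-dNL and 204 in both. With caffeine, 150 were at 50% or more in pcf11-13, 163 in pcf11-dNL, and 166 and 130 in wild type. The other 3725 genes had medians of 3.30% to 6.07% over the 8 libraries. The group held 3.05% to 4.75% of each library's counts and 22.8% to 33.4% of its truncated reads, and 114 of the 227 were at 50% or more in all 8 libraries.

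**Figure D1:**
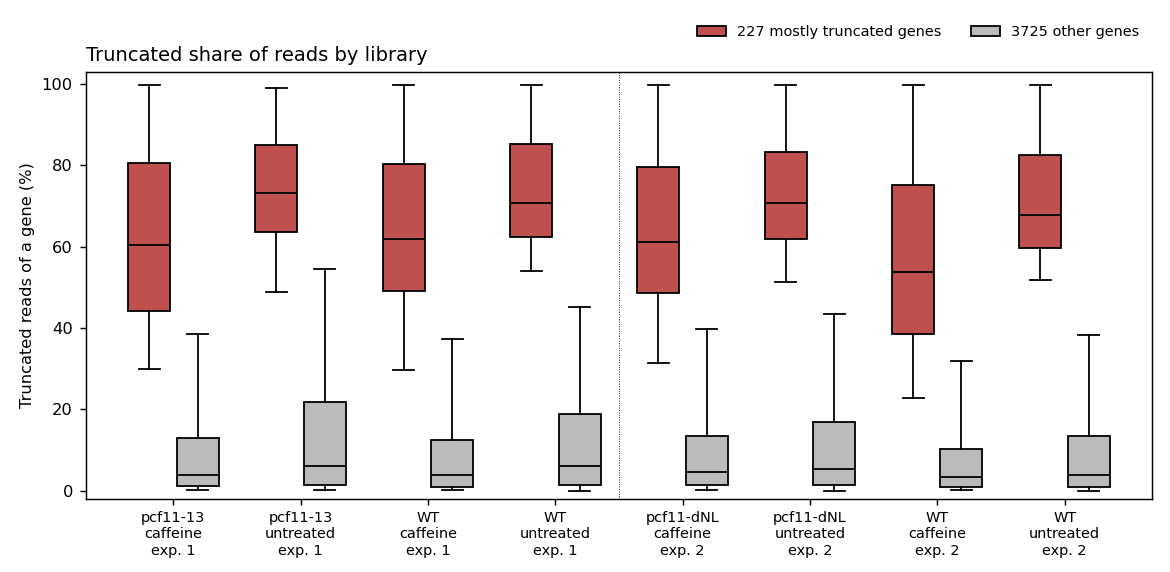
Truncated share of each gene's reads, in percent, by library, for the 227 mostly truncated genes and the 3725 other genes with at least 50 counts everywhere. Boxes span the quartiles with the median, and whiskers the 5th to 95th percentile; the 227 genes had lower medians in each caffeine library (53.8% to 61.9%) than in its untreated partner (67.8% to 73.2%).

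In most genes the truncated reads lay mainly inside or mainly outside a promoter-proximal region. The deposited tables give, beside the truncated fraction, the fraction of reads ending in a such a region, whose bounds the sources used here do not give. The proximal share of the truncated reads, averaged over untreated wild type, was below 10% in 119 genes, 10% to 50% in 31, 50% to 90% in 23 and at least 90% in 54. Annotation and this share divide the group into 22 Ty gag frames, 18 Ty gag-pol frames, 55 other nuclear genes with a proximal share of at least 50%, 130 other nuclear genes below it, and the mitochondrial genes COX1 and VAR1. The median proximal share was 6.31% in the 227 genes and 12.5% among all genes with at least 50 counts.

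The median truncated share in untreated wild type was 70.1% in the proximal and 66.7% in the non-proximal nuclear genes, and the classes had different lengths. Annotated length had a median of 1272 bases in the 55 proximal genes and 2706 bases in the 130 non-proximal genes, against 1260 bases in the other 3725 genes. Genes over 3000 bases made up 5.45% of the proximal class, 45.4% of the non-proximal class and 9.71% of the other genes. Among the genes with the smallest proximal share were TAO3, a scaffold of the RAM signalling network (7131 bases, 73.1% and 61.7% truncated in untreated wild type), and the ubiquitin ligase UFD4 (4452 bases, 58.1% and 57.9%), both with a proximal share listed at 0 in all 8 libraries. RIF1, a telomere protein that limits telomere length, and COX1 were also listed at 0 in all 8. At the other end stood FUB1, the putative nitroreductase HBN1, the glutaredoxin GRX8, the kinetochore protein CNN1 (the yeast CENP-T) and YCL068C. Each of the 5 had a mean proximal share that rounds to 100% in untreated wild type, and the share of FUB1 was 99.6% or more in every library.

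**Figure D2:**
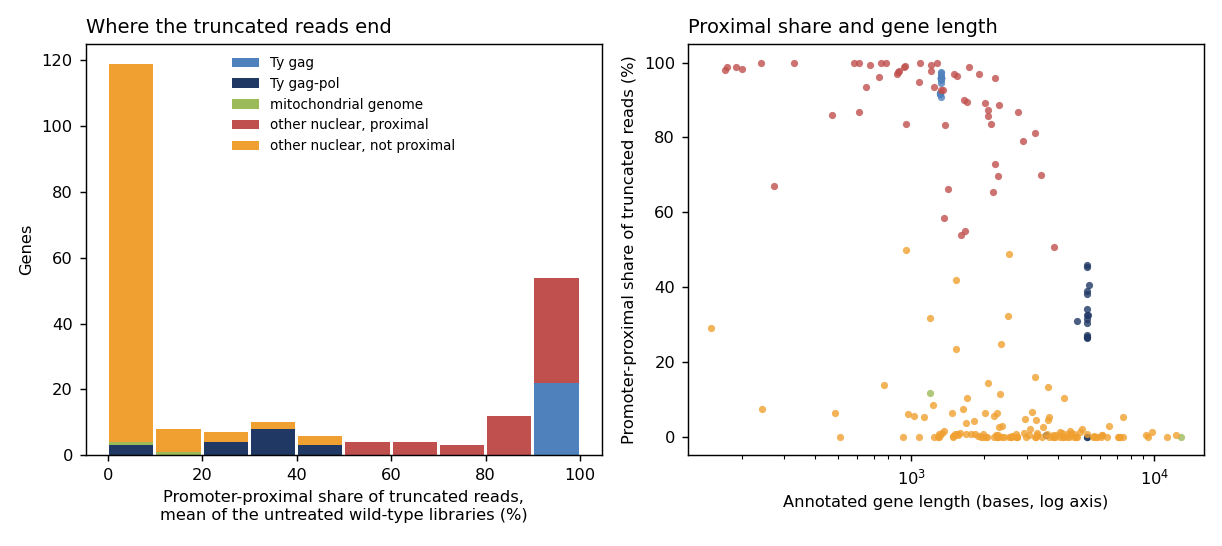
Left, number of the 227 genes by the promoter-proximal share of their truncated reads, in percent, as the mean of the untreated wild-type libraries. Right, the same share against annotated gene length on a log axis, 1 point per gene, coloured by class; 119 genes lie below 10% and 54 at or above 90%.

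The class a gene took in untreated wild type was compared with its ends in the other libraries. In the 55 proximal genes the median proximal share was 95.04% in pcf11-13 with caffeine, 94.2% in pcf11-dNL with caffeine, and 94.4% and 93.7% in wild type with caffeine. Of the 55, 50, 50, 51 and 51 had a share of at least 50% in these libraries, and without caffeine 47 did in pcf11-13 and 51 in pcf11-dNL. In the 130 non-proximal genes the median was 0.927%, 0.809%, 0.727% and 1.04% in the same libraries.

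Sequence letters were compared as a description only, on the coding strand and in genes of at least 300 bases, with overlapping matches counted. In the first 300 bases, TCTT was present in 75.5% of 49 proximal genes, 75.8% of 128 non-proximal genes and 73.8% of all 3759 nuclear genes outside Ty elements with enough counts. GTAA was present in 73.5%, 58.6% and 64.7%, and GTAG in 44.9%, 41.4% and 44.4%. TATATA anywhere in the gene was present in 20.4% of the proximal genes, 55.5% of the non-proximal genes and 27.6% of all. Per 1000 bases of gene it occurred 0.173, 0.427 and 0.249 times on average, and the median A+T content was 59.8%, 62.8% and 60.4%, so length and base composition moved with the TATATA count and their part was not tested.

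Some of the highest truncated fractions came with annotated features of the same strand nearby, and others did not. HBN1, 97.0% truncated on average in untreated wild type, had the next gene of its strand 3483 bases downstream. The median gap to the next gene of the strand was 1412 bases in the 227 genes and 1386 in the other 3725. THO2, a subunit of the THO complex that couples transcription to mRNA export, was 100% truncated in all 8 libraries, its full-length count listed at 0. YNL140C, on the same strand, shares 563 bases with the end of THO2 (YNL140C lies on chromosome XIV, 360917 to 361486). YNL140C had 63.5 to 251.5 counts, of which 0.832% to 19.5% were truncated. FKS1, the glucan synthase that makes the main cell wall polymer, was 96.4% to 99.3% truncated. The small frame YLR342W-A starts 182 bases downstream of it, had 1919 to 6304 counts and was itself 99.5% to 99.9% truncated, with 98.9% to 99.7% of those reads proximal. YLR342W-A had the highest mean count of the group. YBL008W-A, which ends 4 bases before HIR1 on the same strand, was 94.0% to 100% truncated. Of the 227 genes, 39 (17.2%) overlap a gene on their strand, against 1.53% of the other 3725. Outside Ty elements and the mitochondrial genome it was 2 of 185 (1.08%), so the higher share comes from the Ty frames. The sources used here do not say how the authors assigned reads between such features, and the part of the annotation in these fractions was not tested.

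Most of these overlaps are Ty elements, the retrotransposons of yeast, in which a short gag frame and a long gag-pol frame start together. The 22 gag frames were 52.3% to 99.96% truncated in the 8 libraries, with a median of at least 99.1% in each, and 90.2% to 98.8% of the truncated reads were proximal in the median. Of the 22, 19 overlap an annotated gene of the same strand. The 18 gag-pol frames had median truncated shares of 55.2% in pcf11-13, 56.7% in pcf11-dNL, and 54.6% and 48.4% in wild type with caffeine, against 72.7%, 66.6%, 66.9% and 64.1% in the untreated partners. Over 50-base stretches, a median of 98.8% of a gag frame and 98.8% of a gag-pol frame occurs elsewhere in the genome, and the 22 gag frames have 18 distinct sequences. Mean counts were 714.2 to 980.0 in the gag frames and 406.4 to 2229 in the gag-pol frames. Reads of such copies cannot be told apart, so the frames do not count as separate genes.

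**Figure D3:**
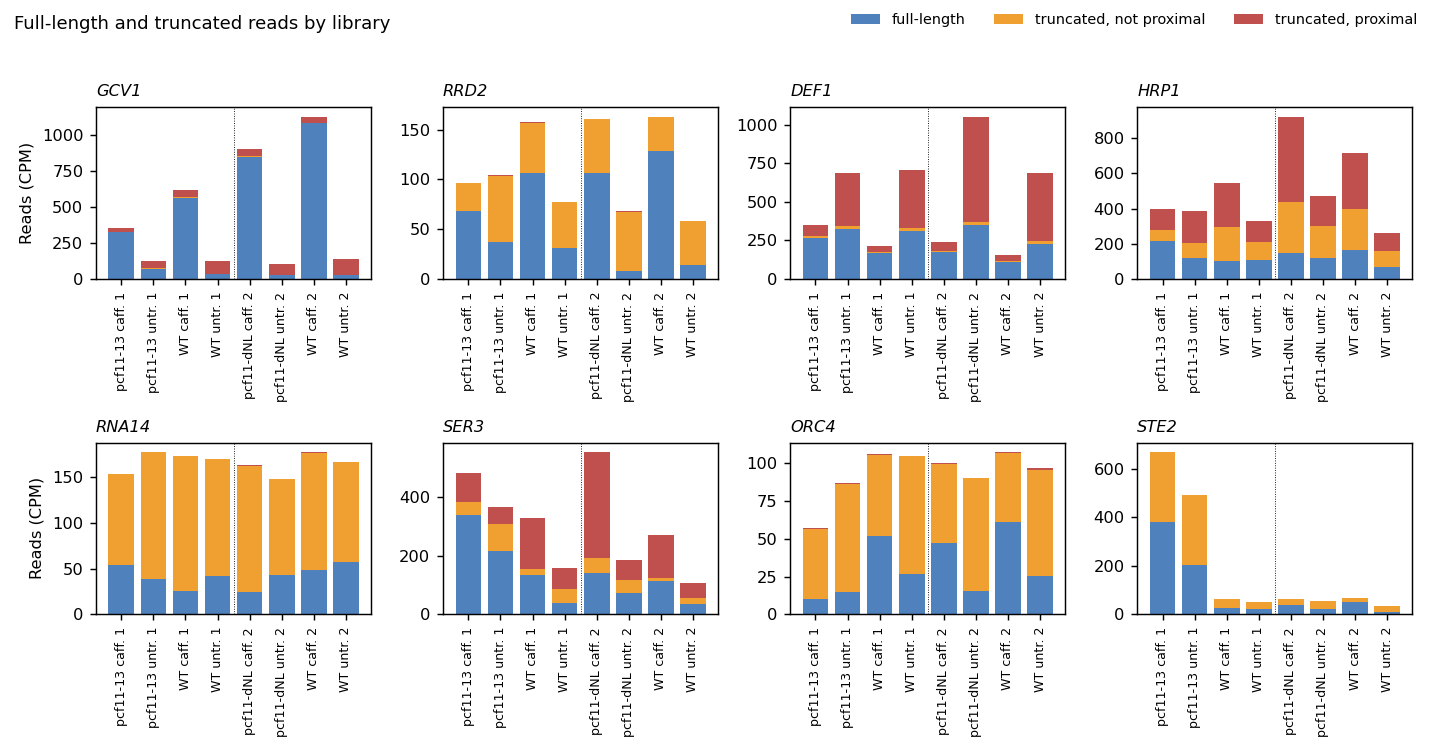
Full-length, truncated non-proximal and truncated proximal reads of 8 genes in each library, stacked, in TMM-scaled CPM. The dotted line separates experiment 1 from experiment 2, and each caffeine library stands left of its untreated partner; GCV1 had 324.7 to 1081 full-length CPM with caffeine and 25.04 to 71.2 without.

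Caffeine was compared with no treatment first within each strain. In every strain the median full-length level of the 227 genes was higher with caffeine, while the median change of their total count lay on either side of 0. The full-length change, as log2(CPM + 1), had a median of 0.26 in pcf11-13, 0.28 in pcf11-dNL, and 0.26 and 0.39 in wild type of experiments 1 and 2. The same medians over all 3952 genes were 0.08, -0.08, 0.00 and -0.06. The total count of the 227 genes changed by medians of -0.12, 0.11, -0.05 and 0.13, and by -0.04, -0.12, -0.08 and -0.11 over all 3952. Their truncated reads changed by medians of -0.46, -0.08, -0.30 and -0.27, against -0.47, -0.23, -0.43 and -0.23 over all 3952, so lower truncated reads were not particular to the group. In bulk RNA, fewer cells that make a transcript and less of it per cell cannot be told apart. The wild-type values share the libraries that chose the genes and have no test, and the values of single mutant strains rest on 1 library a group.

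The truncated share was lower with caffeine in most of the 227 genes, and also in most other genes. It was lower in 177 of the 227 in pcf11-13 (78.0%), 166 in pcf11-dNL (73.1%), and 161 (70.9%) and 175 (77.1%) in wild type, against 72.8%, 56.3%, 66.9% and 56.0% of the other 3725. In all 4 pairs it was lower in 133 of the 227 genes (58.6%), against 33.7% of the other 3725. Full-length levels were higher in all 4 pairs in 97 of the 227 (42.7%), against 25.8% of the others. Wild-type pairs start from the values that chose the genes, so the choice favours a lower share and more full-length reads in caffeine. The other genes, with medians of 3.30% to 6.07%, had little room for a lower share. These counts, percentages and sizes, those over all 4 pairs included, are a description. No difference between the sets is drawn from them. Among the non-proximal nuclear genes the share was lower in all 4 pairs in 89 of 130, among the proximal ones in 27 of 55, and among the gag-pol frames in 16 of 18. Among gag frames it was lower in 0 of 22 and higher in 16. In caffeine, 44 of the 227 genes were below 50% in all 4 libraries.

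The test of caffeine used the mutants, whose truncated fractions took no part in the choice of genes, although their counts did through the minimum of 50. It averages caffeine against untreated over pcf11-13 and pcf11-dNL, on full-length reads rebuilt as count times the full-length share. Of the 227 genes, 202 passed the filter on low counts (2 of 22 gag frames, all 18 gag-pol frames, 54 proximal and 126 non-proximal nuclear genes, COX1 and VAR1), and 32 changed at an adjusted p under 0.05 (edgeR's quasi-likelihood test with Benjamini-Hochberg adjustment over 5709 genes): 30 rose, 14.9% of those tested, and 2 fell, 0.990%. Over all genes tested 9.48% rose and 4.92% fell. Outside Ty elements 15 of 182 genes rose (8.24%) and 2 fell (1.10%), so that the share of rises was above that of all genes only with the Ty frames counted. The median log2 change was 0.40 in the 202 genes and 0.10 over all genes, and 147 of the 202 estimates were above 0. With the experiment as a block, which leaves 1 residual degree of freedom, 63 were called, 55 up and 8 down.
The calls needed the pcf11-dNL pair, and most of the 32 genes also lost their call without a pcf11-13 library. Without either pcf11-dNL library, pcf11-13 alone gave 0 calls by edgeR over the 227 genes and over all genes, although the median log2 change of the tested members was 0.41 and 0.38. Without either pcf11-13 library, pcf11-dNL gave 18 and 17 calls, and without either untreated wild-type library, which supply spread only, 59. The pcf11-dNL library with caffeine had 4555751 counts and its untreated partner 1071339.

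Of the 30 genes that rose, 15 were Ty gag-pol frames, with log2 changes of 0.98 to 1.41. GCV1 rose most, by 3.63 ± 0.40 (SE, adjusted p = 0.00379, edgeR). It encodes the T subunit of the glycine cleavage system, which degrades glycine in mitochondria. Its full-length level was 324.7 CPM in pcf11-13, 846.8 CPM in pcf11-dNL, and 565.7 and 1081 CPM in wild type with caffeine. In the untreated partners it was 71.2, 25.04, 36.0 and 30.6 CPM, so that the groups do not overlap. The untreated wild-type levels of GCV1 depend on the truncated fraction, on which it was chosen. Its truncated share was 8.61%, 6.59%, 8.50% and 4.06% with caffeine, against 42.7%, 76.3%, 70.7% and 77.7% without. Of the truncated reads, 90.1% to 95.8% were proximal with caffeine and 95.9% to 99.4% without. The total level also differed, at 355.3 to 1126 CPM with caffeine and 105.5 to 137.6 CPM without, so both the share and the amount of RNA moved.

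The next 4 in size were RRD2, ATG40, RTA1 and AUS1. RRD2, a peptidyl-prolyl isomerase that activates PP2A-like phosphatases of the TOR pathway, rose by 2.26 ± 0.37 (SE). Its full-length level was 67.9 CPM in pcf11-13, 106.5 CPM in pcf11-dNL, and 106.0 and 128.2 CPM in wild type with caffeine, against 37.1, 8.52, 30.8 and 14.4 CPM untreated. Its truncated reads ended outside the proximal region, with shares of 1.31% or less in every library. ATG40, a receptor for autophagy of the endoplasmic reticulum, rose by 2.19 ± 0.38 (SE), with 168.5 and 129.6 full-length CPM in pcf11-13 and pcf11-dNL with caffeine, against 41.7 and 25.5 CPM untreated. RTA1, a membrane protein of the lipid-translocating exporter family, rose by 2.11 ± 0.55 (SE), at 165.4 and 423.6 CPM against 112.2 and 33.4 CPM in the same strains. AUS1, an ABC transporter for sterol uptake, rose by 2.10 ± 0.26 (SE). In AUS1 truncated reads stood at 87.0 and 83.2 CPM with caffeine in pcf11-13 and pcf11-dNL, against 54.0 and 87.8 CPM untreated. Its full-length reads stood at 99.8 and 83.6 CPM, against 32.2 and 14.3 CPM. The adjusted p of the 4 ranged from 0.00484 to 0.0391 (edgeR).

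The other 10 nuclear genes that rose had log2 changes of 0.92 to 1.41. They were the kinetochore genes MIF2 (the yeast CENP-C) and CNN1, KRE5 of beta-1,6-glucan synthesis, the calcium channel CCH1, SIP3, the ESCRT-0 subunit HSE1, the vacuolar protease PFF1, and PMD1, ECM5 and PET18. They were named after their values were seen, CNN1 apart. VPS16, a subunit of the vacuole tethering complexes, fell by 1.50 on the log2 scale (SE 0.33, adjusted p = 0.0232, edgeR). It had 4.53 and 14.7 full-length CPM in pcf11-13 and pcf11-dNL with caffeine, against 15.3 and 34.9 CPM untreated, and it was 80.7% and 70.6% truncated with caffeine, against 65.8% and 66.8% without. TDA10, a putative kinase, fell by 0.91 on the log2 scale (SE 0.23, adjusted p = 0.0367, edgeR).

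**Figure D4:**
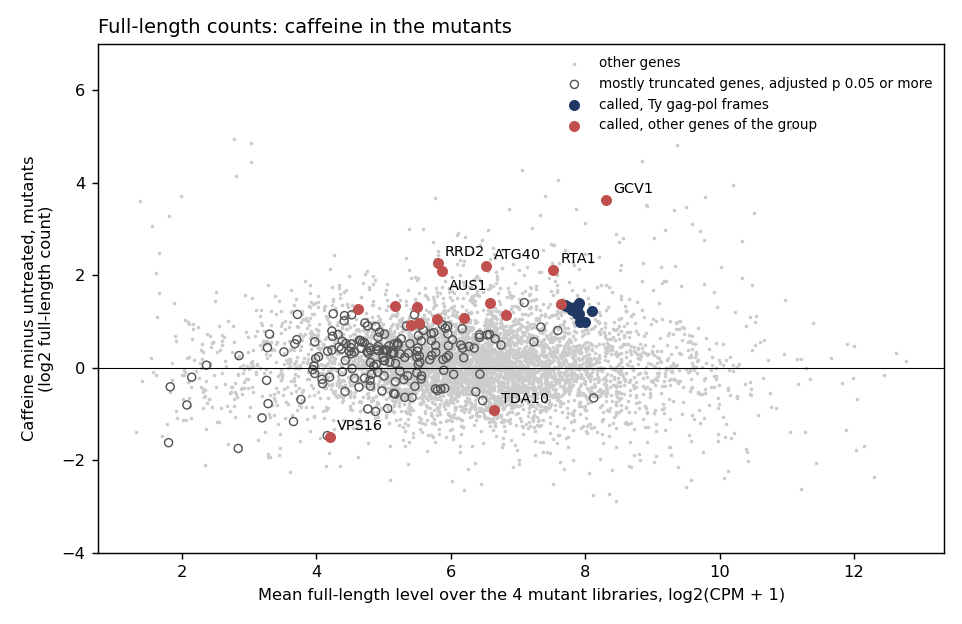
Log2 change of the full-length count, caffeine minus untreated, averaged over pcf11-13 and pcf11-dNL, against the mean full-length level, log2(CPM + 1), for all 5709 genes tested. Of the 202 mostly truncated genes, filled points are the 32 called at an adjusted p under 0.05, of which 15 are Ty gag-pol frames, and open circles the rest.

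The truncated share itself had no call. Caffeine in the mutants moved it by a median of -9.77 percentage points in the 227 genes, with 176 estimates below 0 and 50 above. Over all 5167 genes tested by limma the median was -1.37 points, but most genes had little room for a lower share. No gene passed the adjusted threshold, so that 0% were called higher and 0% lower over all genes, and 0 of the 227. At an unadjusted p under 0.05 limma found 73 of the 227 genes and 1040 of all, and limma on the log2 odds called 1 of the 227. The smallest adjusted p in the group was 0.124 (limma). GCV1 had the largest estimate, -51.9 ± 3.55 points (SE, adjusted p = 0.129, limma). The caffeine effect was also compared between the 2 mutant strains. With 1 library per group and medium, 0 of 202 genes of the group passed the threshold in the full-length count (edgeR, smallest adjusted p 0.264). In the truncated share 0 of 227 did (limma, smallest adjusted p 0.333). This does not show that the strains responded alike.

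Without caffeine the mutants differed from wild type in both directions. The truncated share differed by a median of 0.35 points in pcf11-13 against wild type of experiment 1 and of 0.86 points in pcf11-dNL against wild type of experiment 2. Over all 3952 genes the medians were 0.35 and 0.74 points. In pcf11-13 the share was higher by at least 10 points in 29 of the 227 genes (12.8%) and lower in 35 (15.4%), against 11.6% and 4.45% of all 3952. In pcf11-dNL it was higher by as much in 28 (12.3%) and lower in 9 (3.96%), against 7.52% and 1.27% of all. Full-length levels differed by medians of 0.02 and 0.14 on the log2 scale, against -0.14 and -0.08 over all 3952. They were at least 2-fold higher in 12 genes (5.29%) and lower in 8 (3.52%) in pcf11-13, against 3.87% and 4.63% of all. In pcf11-dNL they were so in 8 (3.52%) and 5 (2.20%), against 2.51% and 2.58% of all. These comparisons include the libraries that chose the genes and have no test. The other genes with enough counts had median truncated shares of 6.07% and 3.94% in untreated wild type of experiments 1 and 2. Most of them had no room for a fall of 10 points. The percentages of genes with such a fall are therefore a description, and no difference between the sets is drawn from them.

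The single pcf11-13 library with caffeine was then compared with both wild-type libraries with caffeine. In the full-length count, 5 of 202 genes were called, 4 higher (1.98%) and 1 lower (0.495%), against 1.30% and 0.736% of all genes tested (edgeR, Benjamini-Hochberg). With the experiment as a block 21 were called, 13 higher and 8 lower. DESeq2 called 3. Without the caffeine-treated wild-type library of experiment 1, 3 were called, without that of experiment 2, 2, and without either untreated wild-type library, 18. The median log2 difference was -0.12 in the group and -0.03 over all genes. Against wild type of experiment 1 alone, 21 of the 227 genes were at least 2-fold higher (9.25%) and 11 lower (4.85%), against 3.74% and 4.10% of all 3952.

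STE2, the alpha-factor receptor that MATa cells make, was higher by 3.30 ± 0.40 on the log2 scale (SE, adjusted p = 0.0136, edgeR). It had 382.2 full-length CPM in pcf11-13 and 27.7 and 49.6 CPM in wild type with caffeine, and 201.7 CPM in pcf11-13 against 21.8 and 11.3 CPM in untreated wild type, which follows the labelled mating types. Its truncated share was 42.7% in pcf11-13 against 56.2% and 27.6% in wild type with caffeine. ORC4, a subunit of the origin recognition complex that licenses DNA replication, was lower, by -2.46 ± 0.37 (SE, adjusted p = 0.0252, edgeR). It had 10.04 full-length CPM in pcf11-13, against 52.0 and 61.5 CPM in wild type with caffeine. The truncated share of ORC4 was 82.4% in pcf11-13 with caffeine and 50.9% and 42.7% in wild type with caffeine, and 82.9% against 74.5% and 74.1% untreated. So pcf11-13 did not have the lower share that the other 3 caffeine libraries had (pcf11-dNL was at 52.6%).

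The other 3 calls were SER3, YET2 and YCL068C. SER3, an enzyme of serine synthesis, is repressed in rich medium by transcription of the non-coding SRG1 across its promoter, an RNA annotated as YNCE0017W that reaches 77 bases into SER3 on the same strand. SER3 had 337.9 full-length CPM in pcf11-13, against 134.5 and 112.2 CPM in wild type with caffeine, a log2 difference of 1.45 ± 0.27 (SE, adjusted p = 0.0427, edgeR). Untreated, it had 216.2 CPM in pcf11-13 against 38.1 and 34.9 CPM in wild type. Its truncated share was 29.9% in pcf11-13, 74.4% in pcf11-dNL, and 59.3% and 58.8% in wild type with caffeine. Reads of SER3 and SRG1 cannot be told apart where they overlap. YET2, an endoplasmic reticulum protein of the BAP31 family, was higher by 1.82 ± 0.36 (SE), with 65.2 full-length CPM in pcf11-13 against 22.7 and 14.2 CPM in wild type. YCL068C, of unknown function on chromosome III, was higher by 2.75 ± 0.49 (SE), at 10.6 CPM against 1.59 and 1.60 CPM. The filter on low counts can be met by 1 library, so YCL068C may have entered the test only through pcf11-13, where it was high. Of its 50-base stretches 85.6% occur elsewhere in the genome, so its reads are uncertain. The adjusted p of YET2 was 0.0486 and that of YCL068C 0.0390 (edgeR).

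In the truncated share, 0 of the 227 genes were called in pcf11-13 against wild type with caffeine, and 0% of all 5167 genes were called higher and 0% lower (limma). At an unadjusted p under 0.05 limma found 37 of the 227 genes and 497 of all 5167. The smallest adjusted p in the group was 0.209 (limma), and limma on log2 odds called 0. The median difference was 0.52 points in the group and 0.10 points over all genes.

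No full-length count was called in pcf11-dNL against wild type with caffeine, in the group or among all genes (0% higher and 0% lower of 5709, edgeR). At an unadjusted p under 0.05 edgeR found 4 of 202 genes and 42 of all 5709. The 4 were RRN3, VBA4 and the gag frames YDR170W-A and YLR256W-A, and DESeq2 called 0. The log2 differences ran from -0.95 to 1.19 with a median of -0.10, against -0.07 over all genes. The largest by size were YCL068C and the transporter NFT1 upward and RRN3, an initiation factor of RNA polymerase I, downward. RRN3 had 15.6 full-length CPM in pcf11-dNL, against 32.0 and 28.3 CPM in wild type with caffeine (log2 difference -0.95 ± 0.31, SE, adjusted p = 1, edgeR). An adjusted p of this size does not show that the strains were alike.

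The truncated share was higher in pcf11-dNL than in wild type of the same experiment with caffeine in 170 of the 227 genes (74.9%), about the share of all 3952 genes (76.6%). The median difference was 5.52 points in the group and 0.84 points over all 3952. It was higher in 114 of the 130 non-proximal nuclear genes (median 8.12 points) and in 38 of the 55 proximal ones (2.09 points). The pcf11-dNL median of 61.3% nevertheless lay between those of the wild-type libraries with caffeine, 61.9% in experiment 1 and 53.8% in experiment 2. Against both, the fitted median difference was 2.38 points in the group and 0.55 points over all genes. By limma 0 of the 227 genes and 0% of all genes in either direction were called, and 0 of the 227 by log2 odds. At an unadjusted p under 0.05 limma found 6 of the 227 genes and 204 of all 5167, and the smallest adjusted p in the group was 1.

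Some genes of termination itself are part of the group, which holds 227 of all 3952 genes with enough counts. Of 17 genes listed for known early ends, 15 had enough counts and 3 are in the group (HRP1, RNA14 and DEF1). Of 21 termination and 3′ end factors, 18 had enough counts and 2 are in it (HRP1 and RNA14). PCF11 was 65.3% truncated in untreated wild type of experiment 1 but 32.1% in experiment 2, and so is not. Of 19 mitochondrial genes, 5 had enough counts and 2 are in it. None of HRP1, RNA14, DEF1, COX1 and VAR1 passed a test in any of the 3 comparisons.

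DEF1, which promotes destruction of stalled RNA polymerase II, had the truncated share 24.8% in pcf11-13, 28.7% in pcf11-dNL, and 20.8% and 27.6% in wild type with caffeine, against 52.7%, 66.6%, 55.8% and 66.4% without. The groups do not overlap, but the untreated wild-type values had to be at least 50% by the choice of genes. A lower share in all 4 pairs was also seen in 58.6% of the 227 genes and 33.7% of the other 3725. Of the truncated reads of DEF1, 86.2% to 97.4% were proximal in the 8 libraries. The full-length level of DEF1 was lower too, at 265.7, 173.3, 170.5 and 112.0 CPM with caffeine, against 324.3, 350.7, 312.1 and 230.3 CPM untreated, in the same order (log2 change in the mutants -0.65 ± 0.30, SE, adjusted p = 0.179, edgeR). So in DEF1 the share of full-length reads was larger with caffeine while their level was not.

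HRP1, the subunit of cleavage factor IB that binds efficiency elements, and RNA14, a scaffold subunit of cleavage factor IA, had another order. HRP1 was 45.6% truncated in pcf11-13, 84.2% in pcf11-dNL, and 81.3% and 77.1% in wild type with caffeine, against 68.9%, 74.4%, 66.6% and 74.7% untreated. RNA14 was 64.6%, 85.1%, 85.3% and 72.9% truncated with caffeine, against 78.5%, 70.6%, 75.03% and 65.7% without. RRN3 was 54.1%, 91.6%, 83.0% and 81.1% with caffeine, against 69.8%, 73.7%, 62.1% and 77.0%. In all 3 genes the share was lower with caffeine in pcf11-13 and higher in the other 3 pairs. The full-length level of HRP1 was 214.9 CPM in pcf11-13 against 101.7 and 163.6 CPM in wild type with caffeine (log2 difference 0.70 ± 0.39, SE, adjusted p = 0.378, edgeR). That of RNA14 was 54.3 CPM against 25.4 and 48.1 CPM (0.56 ± 0.40, SE, adjusted p = 0.491, edgeR). Of the truncated HRP1 reads in untreated wild type 53.5% and 54.4% were proximal, while those of RNA14 and RRN3 were proximal in under 1% in every library, with the TATATA matches shown above at bases 979 and 1013 of RNA14 and 406 and 408 of RRN3.

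Yeast mitochondrial messengers are not known to carry poly(A) tails, so their reads may not mark poly(A) sites. In the group were 2 of them. COX1, a core subunit of cytochrome c oxidase, had 57.1 and 61.1 truncated CPM in pcf11-13 and pcf11-dNL and 58.3 and 65.2 CPM in wild type with caffeine, against 67.1, 591.8, 319.4 and 316.4 CPM in the same strains untreated. Its full-length level was 15.1 to 29.7 CPM throughout. The untreated pcf11-13 library thus lay with the caffeine libraries. VAR1, a mitochondrial ribosomal protein, was 86.2% and 85.0% truncated in pcf11-13 with and without caffeine and 56.0% to 73.6% in the other 6 libraries.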

How the data were processed

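Poly(A)-site reads of 8 yeast libraries were analysed from 4 deposited tables over 5933 genes. The expected counts were estimated per gene by the authors and are not normalized, per the file headers. The truncated and proximal (ProPrx) shares are deposited fractions of a gene's reads, and the average 3′ UTR lengths, in bases, enter no result. The build is sacCer3, per the submitters' processing notes, and the sources used here do not give the aligner or the counting rules, strand included. Of the identifiers, 5919 matched RefSeq (R64, the same assembly) and 14 did not.

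Full-length reads were rebuilt as count × (1 − truncated fraction), rounded, and summed over libraries they differed from the authors' pooled 3′ UTR counts by a median of 0.000778%. They were tested with edgeR 4.0.16 (R 4.3.3; TMM and library size from whole counts, filterByExpr, 6 group means, quasi-likelihood, Benjamini-Hochberg, 0.05). Single mutant libraries are assumed to vary like the wild-type pairs, which supply the spread. The truncated fraction was tested with limma 3.58.1 over 5167 genes, those that reached 20 counts in all 8 libraries. Levels are given as CPM scaled by TMM, and for single libraries 1 was added before taking log2. Only comparisons without untreated wild type were tested, because the genes were chosen on its truncated fraction. Its libraries still enter the spread of every test. Both fits were tested on simulated data. DESeq2 1.42.0, other scalings, no filter, a replicate block and leaving out each library were alternatives.

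The members and lists were chosen with earlier results of these data known. Genes named are, by rule, the 10 highest in truncated fraction and in count, up to 6 called rises and falls per full-length comparison, the 5 largest and smallest proximal shares, the 3 genes on each side of the threshold, and list members. Others are said to be named after seeing values or illustrate an annotation. The labels' experiment numbers pair the libraries: deviations of same-numbered wild-type libraries from their group means correlated at 0.216 (log2 CPM) and 0.312 (truncated fraction) over 5167 genes.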

Additional observations from a re-analysis of the deposited data

Results flagged for a closer look

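Only the genes named by rule were searched here, so the count does not cover the whole group. Some of them were named for a large difference between a mutant and wild type in caffeine. In 5 of the named genes caffeine moved the truncated share one way in both wild-type pairs. In a mutant pair of these genes it moved the share the other way, by at least 10 points. This floor was chosen after the values were seen, the difference between the strains was not tested because untreated wild type chose the genes, and each mutant has 1 pair. In pcf11-13 the share changed with caffeine by -23.3 points in HRP1, -15.7 in RRN3 and -13.9 in RNA14, against changes of 2.39 to 20.9 points in the wild-type pairs of these genes. In pcf11-dNL it changed by 13.7 points in SER3, against -16.6 and -9.01 in wild type, and by -22.8 in the chitinase gene CTS1, against 2.00 and 7.99 in wild type. CTS1 had 4.68 full-length CPM in untreated pcf11-dNL, a library of 1071339 counts.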

How the results depend on the processing

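Of the 32 genes called for caffeine in the mutants and the 5 for pcf11-13 in caffeine, none changed direction under any alternative run. For caffeine in the mutants, the count of 32 was 31 with DESeq2 size factors, 32 with library sizes from full-length reads, 31 without a filter and 23 with DESeq2. It moved to 63 with the experiment as a replicate block and ranged from 0 to 59 when 1 library was left out. For pcf11-13 in caffeine, the count of 5 moved to 3 with DESeq2 and to 21 with the replicate block, and ranged from 2 to 18 when 1 library was left out. The block, like the loss of a wild-type library, leaves 1 residual degree of freedom. For caffeine and the truncated fraction, the count of 0 moved to 1 with log2 odds. No other count of calls changed by over 1.5 times under the alternatives, the replicate block included. Depth of the untreated libraries, from 1070278 counts, limits genes near the minimum of 50 counts.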
